A study of Solanum lycopersicum with 9 samples.

Results

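The 3 libraries of WRKY-B-GFP plants were compared with the 3 libraries of control CK1, which are 6 of the 9 libraries of the series. WRKY-B-GFP plants carry WRKY-B fused to green fluorescent protein under the 35S promoter, which drives expression in most plant tissues, and their libraries are named OE1, OE30 and OE9. The labels name no transgene, and OE1, OE30 and OE9 are counted as WRKY-B-GFP since the study uses the name OE for these plants. The 3 libraries of control CK2 are used only for values set beside the others. The labels give WRKY-B-GFP as cultivar Compound raceme and tissue flower, control CK1 as cultivar monomaker and tissue bud, and control CK2 as cultivar Compound raceme and tissue bud. The paper instead describes axillary buds of cultivar Ailsa Craig from 45-d-old plants, with 10 plants in each replicate, for all of its RNA-Seq libraries. It counts 6 such libraries, from wild-type and WRKY-B-GFP plants, and its text names neither control CK1 nor control CK2. Which control set, if either, is the wild type of the paper is therefore not stated. By the labels, the tissue and the cultivar both differ between WRKY-B-GFP and control CK1, and by the study the transgene does, so their parts in any difference cannot be told apart. Whether the numbers 1, 30 and 9 mark separate transgenic lines is not stated.

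WRKY proteins are plant transcription factors named for a conserved stretch of amino acids in their DNA-binding domain. They bind short elements known as W-boxes in promoters and are best known for roles in defence, stress responses and development. A gene expressed from the 35S promoter is read from the transgene as well as from its own locus, so its level in the transgenic plants is a check on the labels.

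The values are FPKM, that is, sequenced fragments normalised to transcript length and to the number of fragments mapped. They are given for gene models, of which a locus can have more than 1. The table holds 33989 gene models, and the sum of FPKM was 615715 to 684351 in the WRKY-B-GFP libraries and 749973 to 759157 in control CK1. Between 19969 and 21117 gene models reached 1 FPKM in the WRKY-B-GFP libraries, against 21718 to 21793 in control CK1. Read totals are not known, so the spread between 3 libraries is the measure of error. None of the files pairs a Solyc ID with a gene name or a function, and the paper's text does so only for WRKY-B. Known tomato genes and processes could therefore not be assigned to the changes. The labelled tissues could not be checked against marker genes for the same reason.

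The overexpressed gene was examined first. WRKY-B (Solyc02g071130.3) had 74.04, 93.51 and 205.7 FPKM in OE1, OE30 and OE9, against 0.87, 0.71 and 0.55 FPKM in the control CK1 libraries. It had 0.4, 0.4 and 0.08 FPKM in control CK2. The WRKY-B-GFP libraries stood far above both control sets, and OE9 was the highest of the 3. The means were 124 ± 71.1 FPKM in WRKY-B-GFP and 0.71 ± 0.16 FPKM in control CK1 (SD, n = 3 each). The log2 fold change, on log2(FPKM + 0.1), was 7.14 ± 0.39 (SE), with a Benjamini-Hochberg adjusted p of 4.126e-05 by limma. The exact two-sided permutation test on FPKM gave p = 0.1, the smallest that 3 libraries against 3 allow.

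Of the 24448 gene models tested, 4272 were higher and 5323 were lower in WRKY-B-GFP than in control CK1, where a call needed at least a 2-fold change with an adjusted p below 0.05 by limma. These were 17.5% and 21.8% of the gene models tested, or 39.2% in all. The median log2 fold change was 1.53 over the higher gene models and -2.16 over the lower ones, beside 0.01 over all that were tested. In the median, called falls were thus larger than called rises. Among the higher gene models 1133 changed at least 4-fold, 115 at least 16-fold and 19 at least 64-fold. Among the lower ones 2890 changed at least 4-fold, 927 at least 16-fold and 256 at least 64-fold. When each library was scaled by its median ratio, the median log2 fold change over all gene models moved to -0.12, and the higher calls made up 37.8% of all calls instead of 44.5%.

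**Figure D1:**
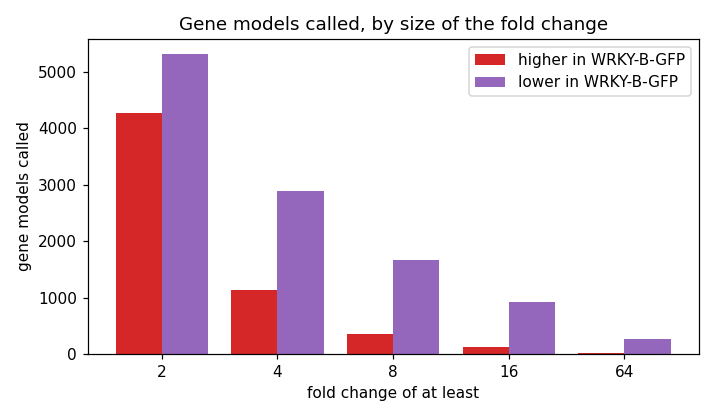
Number of gene models called higher (red) and lower (purple) in WRKY-B-GFP than in control CK1, by the fold change they reached at least; each bar includes the bars to its right of the same colour. At 64-fold or more there were 19 higher and 256 lower gene models.

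The gene models that were lower held a large share of the transcripts of control CK1. They took 12.3%, 10.5% and 14.1% of the FPKM sum in OE1, OE30 and OE9, against 41.9%, 41.9% and 41.7% in the control CK1 libraries. The higher gene models took 29.5%, 32.9% and 25.8% in OE1, OE30 and OE9, against 7.64%, 7.62% and 7.71% in control CK1. These shares describe gene models chosen for their difference and test nothing. By level, lower calls were most frequent at both ends of the range. They made up 32.7% of the 2429 gene models that averaged under 1 FPKM over the 6 libraries and 32.8% of the 1171 that averaged at least 100 FPKM. In the 3 level classes between these they made up 16.7% to 25.2%. Higher calls varied less with level, at 13.1% to 18.7%. Testing needed 0.5 FPKM or more in at least 3 of the 6 libraries, which 1 group alone could supply. Under 1 FPKM the shares called therefore depend in part on this filter.

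Some gene models were read in 1 group and nearly absent from the other. A gene model was taken as on in a group where all 3 libraries had 1 FPKM or more, and as off where none exceeded 0.1 FPKM. By these limits, of all 33989 gene models, 37 were on in WRKY-B-GFP and off in control CK1. Another 530 were off in WRKY-B-GFP and on in control CK1. All of the 37 and all of the 530 were also called by the test. The limits alone ensure that a gene model passes the filter and changes more than 2-fold, so these calls are no separate support. The 37 had means of 1.28 to 84.0 FPKM in WRKY-B-GFP, and none reached 100 FPKM. The 530 had means of 1.05 to 5595 FPKM in control CK1, where 27 reached 100 FPKM and 6 reached 1000 FPKM. Those 530 took 3.28% to 3.34% of the FPKM sum in control CK1. In control CK2, 224 of the 530 were also off and 150 were on. Of the 37, 23 were off and 6 were on in control CK2. The rest of both sets met neither limit there. How many of all gene models were on or off in control CK2 was not counted, so these counts have no background to compare with.

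The largest changes were taken among called gene models whose groups did not overlap and whose higher group averaged at least 5 FPKM. The adjusted p-values given for these gene models come from the test that selected them, so they are no separate support. The largest rise was that of Solyc09g015650.3. Solyc09g015650.3 had 78.17, 89.45 and 84.33 FPKM in OE1, OE30 and OE9 and was listed at 0 in all control CK1 libraries. It was also listed at 0, 0 and 0.1 FPKM in control CK2, so that it was read in the WRKY-B-GFP libraries and next to nowhere else. The 3 WRKY-B-GFP values lay close together, unlike those of WRKY-B, and the adjusted p by limma was 4.027e-07. The control CK1 values behind that p-value had no spread, as all were 0.

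On the side of the falls, Solyc02g078370.1 had 0, 0.07 and 0 FPKM in OE1, OE30 and OE9, against 5523, 5835 and 5425 FPKM in control CK1. In control CK2 it had 9.59, 10.68 and 10.01 FPKM. It was thus far higher in control CK1 than in either of the other groups (adjusted p by limma for WRKY-B-GFP against control CK1, 2.906e-07). Solyc01g009590.3 was listed at 0 in all WRKY-B-GFP libraries and had 2273, 2238 and 2203 FPKM in control CK1. It had 0.29, 0.71 and 0.28 FPKM in control CK2 (adjusted p by limma, 1.096e-08). The WRKY-B-GFP values behind that p-value had no spread, as all were 0. For both gene models, the control sets differed far more from each other than their libraries did.

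**Figure D2:**
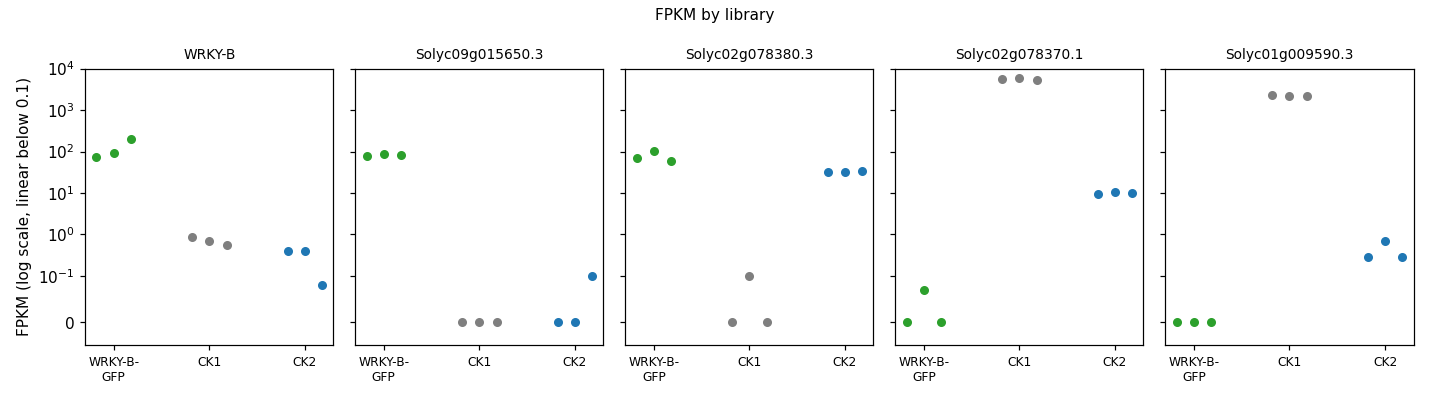
FPKM of WRKY-B and of the 4 gene models that rose or fell the most, 2 in each direction, on a log axis that is linear below 0.1; each point is 1 library of WRKY-B-GFP (green), control CK1 (gray) or control CK2 (blue). The 2 that fell reached 2203 to 5835 FPKM in control CK1 and 0.28 to 10.68 FPKM in control CK2.

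The second largest rise came from a locus with 2 gene models that moved in opposite directions. Solyc02g078380.3 had 68.72, 102.22 and 58.62 FPKM in OE1, OE30 and OE9, against 0, 0.1 and 0 FPKM in control CK1 (adjusted p by limma, 1.289e-05). The other model, Solyc02g078380.3.1, had 0, 0 and 0.07 FPKM in OE1, OE30 and OE9, against 59.52, 61.13 and 68.58 FPKM in control CK1 (adjusted p by limma, 4.166e-06). The file places Solyc02g078380.3.1 on the minus strand of chromosome 2, between 43651254 and 43653626 of build SL3.0. The sum of both was 68.72, 102.22 and 58.69 FPKM in WRKY-B-GFP and 59.52, 61.23 and 68.58 FPKM in control CK1, and these ranges overlapped. The log2 fold change of the sum was 0.24 ± 0.21 (SE), which was not called (adjusted p by limma, 0.3381). In control CK2 the sum was 31.69, 32.02 and 34.04 FPKM, nearly all of it from Solyc02g078380.3. The 2 models thus exchanged places between the groups, while a difference in their sum was not detected.

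This pattern was examined over all loci where both gene models were tested, 3571 in all. Both models were called higher at 348 loci (9.75%) and lower at 238 (6.66%), and the sum was called the same way at all of these. Neither model was called at 1598 loci (44.75%). At 69 loci (1.93%) the models were called in opposite directions, and the summed FPKM of 46 of these was not called. At 955 loci (26.7%) 1 model was higher and the other not called, and the sum was called higher at 361 of these. At 363 loci (10.2%) 1 model was lower and the other not called, and the sum was called lower at 159. Over summed FPKM, 3302 of 20913 loci were higher (15.8%) and 4872 were lower (23.3%). Calls on gene models and calls on loci thus differed at many of the loci whose 2 models were not called alike. How the authors' counting assigned reads between 2 models of a locus is not given, and its part in these calls was not tested.

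The direction of the calls also varied with the kind of ID. IDs with 2 suffixes, such as that of Solyc02g078380.3.1, were called higher in 24.7% and lower in 14.3% of 7245 gene models. IDs with 1 suffix were called higher in 14.2% and lower in 24.9% of 16886. The median log2 fold change was 0.34 over the IDs with 2 suffixes and -0.16 over those with 1. Where a locus had both kinds, the model with 1 suffix was lower and the one with 2 suffixes was higher at 51 loci, and the reverse held at 18. The meaning of the second suffix is not given, and its part in the calls was not tested. Of the 37 gene models on in WRKY-B-GFP and off in control CK1, 17 belonged to a locus with another model, which was on in control CK1 at 14 of these. Of the 530 in the other direction, 134 belonged to a locus with another model, which was on in WRKY-B-GFP at 27.

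**Figure D3:**
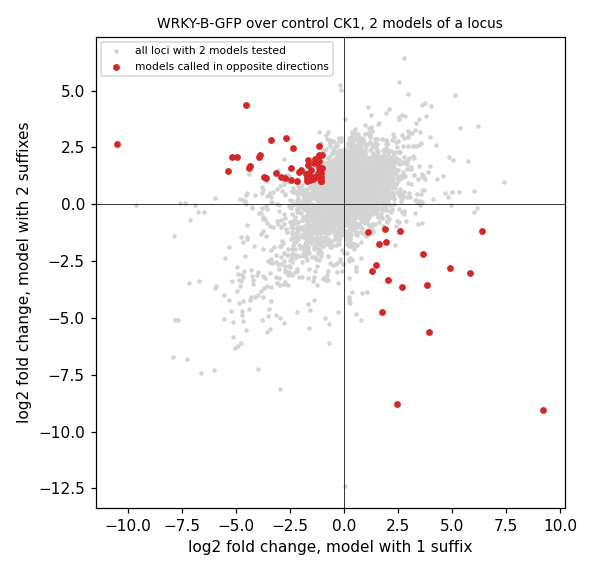
Log2 fold change of WRKY-B-GFP over control CK1 for the gene model with 1 suffix (x axis) and the one with 2 suffixes (y axis) of the same locus; each point is 1 of 3571 loci, and red points are the 69 loci whose models were called in opposite directions. Red points in the upper left are loci where the model with 2 suffixes was the higher one (51 loci), and those in the lower right are the reverse (18 loci).

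The libraries of WRKY-B-GFP differed among themselves more than those of control CK1. The median coefficient of variation, over gene models that averaged at least 5 FPKM in the group, was 16.3% in WRKY-B-GFP and 4.46% in control CK1. The highest library was at least 4 times the lowest at 359 of 14225 gene models in WRKY-B-GFP, against 11 of 14499 in control CK1. OE9 was the highest at 181 of the 359, OE1 at 110 and OE30 at 68, and OE30 was the lowest at 240. OE1 and OE9 were 2-fold or more apart at 2693 gene models, OE1 and OE30 at 3781, and OE30 and OE9 at 4152. The pairs of control CK1 libraries were that far apart at 915 to 955. OE30 thus stood farthest from the other WRKY-B-GFP libraries. For each gene model the limma fit used the same variance in both groups. Its SEs and p-values therefore do not reflect the unequal spread of the groups.

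**Figure D4:**
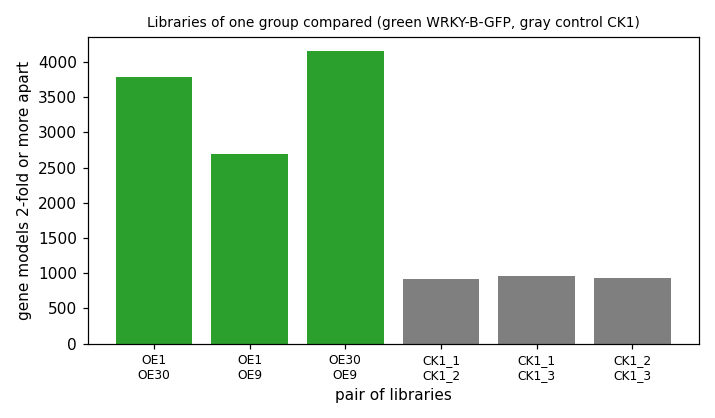
Number of tested gene models that were 2-fold or more apart on log2(FPKM + 0.1) in each pair of libraries of WRKY-B-GFP (green) and of control CK1 (gray). The pairs of WRKY-B-GFP libraries range from 2693 to 4152 gene models and those of control CK1 from 915 to 955.

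The share of gene models called differed little between whole chromosomes. Whether calls cluster along a chromosome was not tested. Taking the chromosome from the ID, 36.8% of the tested gene models were called on chromosome 9 and 40.4% on chromosome 10, and the other numbered chromosomes from 1 to 12 lay between these. The 150 gene models whose ID places them on no chromosome (numbered 0) were called in 46.7% of cases. Gene models added by the authors' pipeline were called in 52.1% of 317 cases, with 85 higher and 80 lower.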

How the data were processed

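RNA-Seq of tomato was deposited by the authors as FPKM per gene model and library, with 2 decimals. The submitters' processing notes list DESeq2 1.4.5, RSEM 1.2.12, HISAT2 2.0.4 and Bowtie2 2.2.5 but give no role for any of them. The deposited columns of log2 fold changes, p-values and q-values of the authors' own comparisons were not used.

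The test was limma-trend (limma 3.58.1, R 4.3.3) on log2(FPKM + 0.1). Gene models were tested where 3 or more of the 6 libraries reached 0.5 FPKM. The fit was also run on simulated data with 200 changed gene models, in which both groups had the same spread, unlike these data. That run therefore says nothing about groups of unequal spread. Other steps used Python 3.11.15, pandas 2.3.3 and numpy 2.4.6.

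The comparison and the kinds of result were chosen with earlier results of these data known. Planned gene lists were dropped after values of their loci had been seen, because their pairs of ID and name came from memory and 0 of 41476 RefSeq genes carry a Solyc ID to check them by. The rule for named genes then left only WRKY-B. Of the other gene models, 2 that rose and 2 that fell the most are given by ID, as is the second model of 1 of their loci, chosen after its values were seen. The limits for on and off, the spread and the analysis of loci with 2 models were chosen after the data were seen. The study describes 3 biological replicates of 10 plants each, while the labels do not say which plants a library came from. Read depth is unknown.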

Additional observations from a re-analysis of the deposited data

How the results depend on the processing

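The 13 alternatives run were other pseudocounts and filters, median-ratio scaling, all 9 libraries in 1 fit, summed FPKM per locus, and leaving out each library. Under all of them the counts stayed within 1.5 times of 4272 higher and 5323 lower. Higher calls ranged from 3288 to 4454 and lower calls from 4344 to 6052. The totals tested also differed, from 20913 loci for summed FPKM to 32639 gene models, so these counts do not share 1 total. Leaving out 1 library gave 4056 to 4260 higher and 4733 to 5815 lower gene models, and a log2 fold change of WRKY-B of 6.70 to 7.44. WRKY-B passed the test under each alternative. With log2(FPKM + 1), 3288 gene models were higher and 4344 lower. Of the 4 gene models given by ID, Solyc02g078380.3 lost its call when the models of a locus were summed (log2 fold change 0.24). The other model of that locus moved the opposite way. The other gene models given by ID kept their calls under each alternative. They were chosen as the largest changes, so keeping a 2-fold call is no separate support. Limits chosen after seeing the data moved the counts of on and off gene models. At 5 FPKM or more against 0 there were 6 on and 142 off in WRKY-B-GFP, and at 5 FPKM or more against at most 0.5 FPKM there were 20 on and 302 off. The planned counts per gene list were not run, because no source used here pairs the IDs with names. No paired analysis was possible because the library numbers of WRKY-B-GFP (1, 30 and 9) and control CK1 (1, 2 and 3) share only 1 number. With FPKM alone, counting error at low levels is unknown.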
